A study of Mus musculus with 18 samples.

Results

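The genes described here are 40 genes of the cell cycle and of DNA replication, measured in eosinophils from the mouse small intestine. They were chosen by gene symbol, all 40 were found, and the deposited table holds 22708 genes. By role they are 10 G1 cyclins, kinases, E2f1 and the pocket protein gene Rb1, 3 inhibitors of cyclin-dependent kinases (CDK), 9 genes of replication licensing and the replication fork, 3 genes of nucleotide supply, and 15 genes of G2 and mitosis.

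RNA was sequenced from 18 samples of sorted cells, 6 each from wildtype mice (WT), Ahr knockout mice (Ahr-KO) and Ahrr knockout mice (Ahrr-KO), with 3 females (F1 to F3) and 3 males (M1 to M3) of each genotype, all on the strain that the labels give as C57/BL6. Cells were enriched with beads against CD11b and sorted as CD11b+MHC-II-SiglecF+SSChi, a gate for eosinophils. Per the study's methods, Ahr-/- mice and WT controls were neither littermates nor housed together, and Ahrr knockout mice are not among the mice listed there, so genotype and breeding or cage cannot be told apart in any of the genotype comparisons, and no age is given for single samples. The recovered count per library ran from 3842977 to 8149200 in WT, from 6581818 to 10284124 in Ahr-KO and from 8788867 to 12046933 in Ahrr-KO, and p-values measure the spread between these samples, which the study describes as separate mice for WT and Ahr-KO, although the labels do not say so.

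Dividing cells commit to a round of division in G1, when cyclin D with Cdk4 or Cdk6 phosphorylates Rb1 and releases E2F factors that switch on the genes for DNA synthesis, and a later wave of genes, including those for cyclin B and the Aurora kinases, carries the cell through G2 and mitosis. CDK inhibitors such as Cdkn1a (p21) and Cdkn1b (p27) hold these kinases in check in resting and differentiated cells. Eosinophils finish dividing in the bone marrow and are regarded as postmitotic in tissue, while the crypts of the small intestine hold some of the fastest dividing cells of the body, and the aryl hydrocarbon receptor Ahr and its repressor Ahrr are both present at this barrier.

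The targeted genes were looked at first, as normalized counts, which are recovered counts divided by the size factor of each library. Ahr ran from 10766 to 21592 in WT (median 13774), from 18084 to 26050 in Ahr-KO (median 23973) and from 8324 to 21894 in Ahrr-KO (median 11605). Its transcript was thus not lower in the libraries labelled Ahr-KO. Ahrr, itself a gene that Ahr switches on, ran from 819 to 1281 in WT (median 1047), from 0 to 9.43 in Ahr-KO (median 0.837) and from 925 to 1888 in Ahrr-KO (median 1281). The Ahrr transcript was near 0 in every library labelled Ahr-KO and was not lower in those labelled Ahrr-KO. The sources used here do not state which part of either gene is deleted, and reads from outside a deleted part check nothing, so each direction below rests on the genotypes as labelled.

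The eosinophil label was held against 10 marker genes. Ccr3, the eotaxin receptor, ran from 5286 to 15551 normalized counts over the 18 samples, Siglecf, the surface protein of the gate, from 837 to 3113, and Il5ra, the receptor subunit for interleukin 5, from 992 to 3206. Alox15, a lipoxygenase of eosinophils, gave 53.4% of the summed count of the list. Most transcripts of granule proteins were low, with Epx (eosinophil peroxidase) at 3.03 to 23.6 normalized counts in all samples and Ear6 at 0 in 9 or more of the 18 samples. The summed eosinophil list ran from 24866 to 38211 in WT, from 38503 to 49555 in Ahr-KO and from 14322 to 38775 in Ahrr-KO, and was lowest in Ahrr-KO M3 (14322), Ahrr-KO F3 (21236) and WT F1 (24866). Of the 10 markers 5 passed the minimum mean for a test. Siglecf, Il5ra, Alox15 and the granule protein gene Prg2, at 325 to 925 in Ahr-KO and at most 189 in every other library, were called higher in Ahr-KO than in Ahrr-KO (median difference of the 5, 0.75), and Alox15 and Prg2 higher in Ahr-KO than in WT, while Ccr3 was called in neither.

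Some libraries stood apart in markers of the intestinal epithelium, which the gate should remove. All 22 genes of the enterocyte, goblet cell and crypt lists had counts, with Muc2 of goblet cells the most abundant (17.2% of the sum) and none of the 22 at 0 in all samples. Their summed normalized count in WT was 31728 in F1, 10835 in F2, 15446 in F3, 13653 in M1, 19616 in M2 and 20631 in M3. In Ahr-KO it was 8565 in F1, 7484 in F2, 11061 in F3, 12880 in M1, 11996 in M2 and 10660 in M3. In Ahrr-KO it was 15136 in F1, 8076 in F2, 51654 in F3, 44083 in M1, 31644 in M2 and 67795 in M3. The 6 highest libraries were WT F1, WT M3 and Ahrr-KO F3, M1, M2 and M3, and Ahr-KO had no library among them.

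Mitotic transcripts were summed in the same way. The summed normalized count of all 15 G2 and mitosis genes was highest in Ahrr-KO M3 (12478), WT F1 (7644), Ahrr-KO F3 (7491), WT M3 (7478) and Ahrr-KO M2 (5679), all among the 6 libraries above, followed by WT F3 (4640), while Ahrr-KO M1 (3888) lay below Ahr-KO M1 (4478) and Ahr-KO M2 (4354). The summed normalized count of 14 G2 and mitosis genes, leaving out Mki67 because it alone gave 52.8% of the group's sum, a choice made with the values known, ran from 1553 to 3976 in WT (median 1980), from 1009 to 1813 in Ahr-KO (median 1331) and from 1293 to 6466 in Ahrr-KO (median 2701). It was highest in Ahrr-KO M3 (6466), WT F1 (3976), Ahrr-KO F3 (3801) and WT M3 (3633), and lowest in Ahr-KO F1 (1009) and Ahr-KO F2 (1010). The 6 libraries highest in this sum of 14 genes were the 6 highest in the epithelial sum, while of the 5 highest in each 4 were shared. With Mki67 included 5 of the 6 were. These numbers of libraries, too, were set with the values known. In bulk samples a different number of cells of a type and a different amount of RNA per cell cannot be told apart, and the part of epithelial RNA in the mitotic transcripts was not tested.

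**Figure D1:**
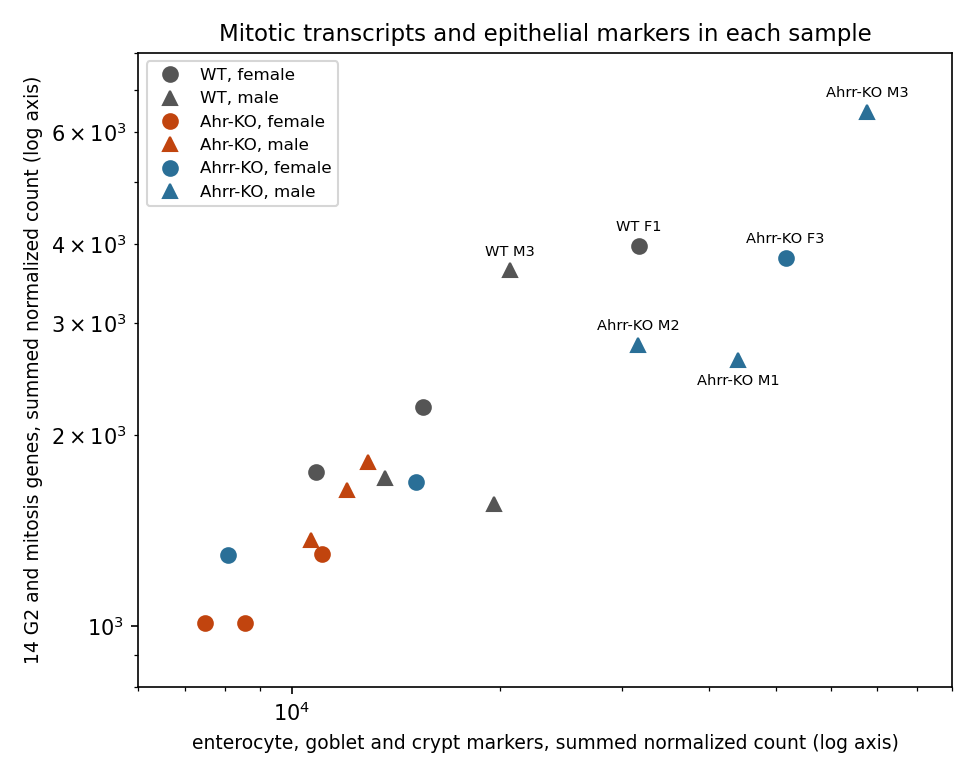
Summed normalized count of 14 G2 and mitosis genes against that of 22 enterocyte, goblet cell and crypt markers, both on log axes, 1 point per sample, coloured by genotype and shaped by sex. The 6 labelled libraries are the highest on both axes, while the 5 highest on each share 4, with Ahrr-KO M3 at 6466 and 67795.

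The cell cycle genes were not equally abundant. Per kilobase of exon, the median normalized count over 18 samples was highest for Cdkn1b (464), Cdkn1a (346), Cdk6 (275), Mki67 (239), Pcna (211) and Rb1 (195). Next came Ccnd2 (96.6), Mcm4 (78.7) and Top2a (66.6), and the lowest were Cdc6 (4.70) and Ccne1 (4.45). Thus 2 CDK inhibitors and 2 G1 genes stood among the 6 most abundant, together with the proliferation markers Mki67 and Pcna. In mitotic genes such as Ccnb1 (18.2), Cdk1 (12.2) and Bub1 (12.3) the level was far below that of Mki67, which was placed in the same role group here. Of the 40 genes, 39 passed the minimum mean in each comparison, and Ccne1, encoding cyclin E1, did not.

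Genes were compared with limma on the deposited log2 values with sex as a covariate, and called at an adjusted p (Benjamini-Hochberg over all genes tested) below 0.05. Differences are given on that log2 scale, which understates the fold of genes with low counts. In WT against Ahr-KO, 3 of 39 cell cycle genes were called (7.69%), Top2a, Ccna2 and Aurkb, all higher in WT, beside 8.84% of 11346 genes called in either direction and 3.68% called higher in WT. The share was near that of all genes, while 35 of the 39 differences were above 0, with a median of 0.22 beside 0.00 over all genes tested. Without WT F3, without WT M3, without Ahr-KO F2 or without Ahr-KO M3 the count was 1, without Ahr-KO F1 it was 0, without WT M1 it was 6 and without WT M2 it was 8. The median difference in these fits ran from 0.134 (without WT F1 or without WT M3) to 0.288 (without WT M2). Limma voom on the recovered counts called the same 3 genes, while the count was 0 without a minimum mean and 0 in a fit of all 18 samples.

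In WT against Ahrr-KO, 0 of 39 were called by limma, beside 0.0779% of 11546 genes. The count at an unadjusted p under 0.05 was also 0, limma voom called 0, and so did each of the 12 fits that left out 1 library. The median difference was -0.15 beside -0.01 over all genes, and ran from -0.243 (without WT F1) to -0.025 (without Ahrr-KO M3) with 1 library left out. Values overlapped between these groups for every cell cycle gene named here.

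In Ahr-KO against Ahrr-KO, 12 of 39 were called (30.8%), all lower in Ahr-KO, beside 14.9% of 11474 genes in either direction and 8.04% lower in Ahr-KO. They were Top2a, Ccna2, Ccnb1, Ccnb2, Cdc20, Birc5, Bub1, Aurka, Mcm5, Rrm2, Ccnd1 and Cdkn1a. The median difference was -0.36 beside 0.00 over all genes, and limma voom called 11. Without Ahr-KO M3 the count was 2 (Ccnb1 and Ccnb2), without Ahr-KO M1 it was 6 and without Ahr-KO F1 it was 7. Without a minimum mean it was 0, and without the sex covariate it was 6.

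Because mitotic transcripts and epithelial markers were high in largely the same libraries, 2 fits were added after the data were seen. With the log2 epithelial sum as a further covariate, 0 of the 39 were called by limma in Ahr-KO against Ahrr-KO, and the median difference was -0.08, while calls over all genes fell from 1708 to 298 of 11474. Of the 12, Cdkn1a was at -1.0 with this covariate, beyond its -0.76 without it, although no longer called. The others ran from -0.36 (Cdc20) to 0.05 (Birc5). The epithelial sum itself differed between the genotypes, so this fit also takes up any genotype difference that runs along with it. Leaving out the 5 libraries with the highest crypt sums (WT F1 and M3, Ahrr-KO F3, M1 and M3) called 3, Top2a, Ccnd1 and Cdkn1a, all among the 12, with a median difference of -0.15, beside 626 of 11320 genes. These counts thus fell together with those of the whole table. None of the 5 libraries is from Ahr-KO, and Ahrr-KO M3, WT F1, Ahrr-KO F3 and WT M3 were also the highest in the sum of 14 mitotic genes. Leaving them out thus takes high mitotic values from WT and Ahrr-KO alone, and keeps only F1, F2 and M2 of Ahrr-KO. A call lost in this fit therefore does not tell epithelial RNA from a genotype difference. In WT against Ahr-KO the covariate gave 2 called genes, Cdkn1a higher and Ccnd2 lower in WT, and leaving out the 5 libraries gave 1, Cdkn1a, none of them among the 3 of the fit without these changes, beside 880 of 11346 and 890 of 11320 genes. The median difference there, 0.22, was 0.06 with the covariate and 0.10 without the 5 libraries. Top2a, Ccna2 and Aurkb were at 0.15, 0.07 and 0.23 with the covariate. Without the 5 libraries they were at 0.54, 0.42 and 0.38. The genotype comparisons share samples, since each group enters 2 of them.

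**Figure D2:**
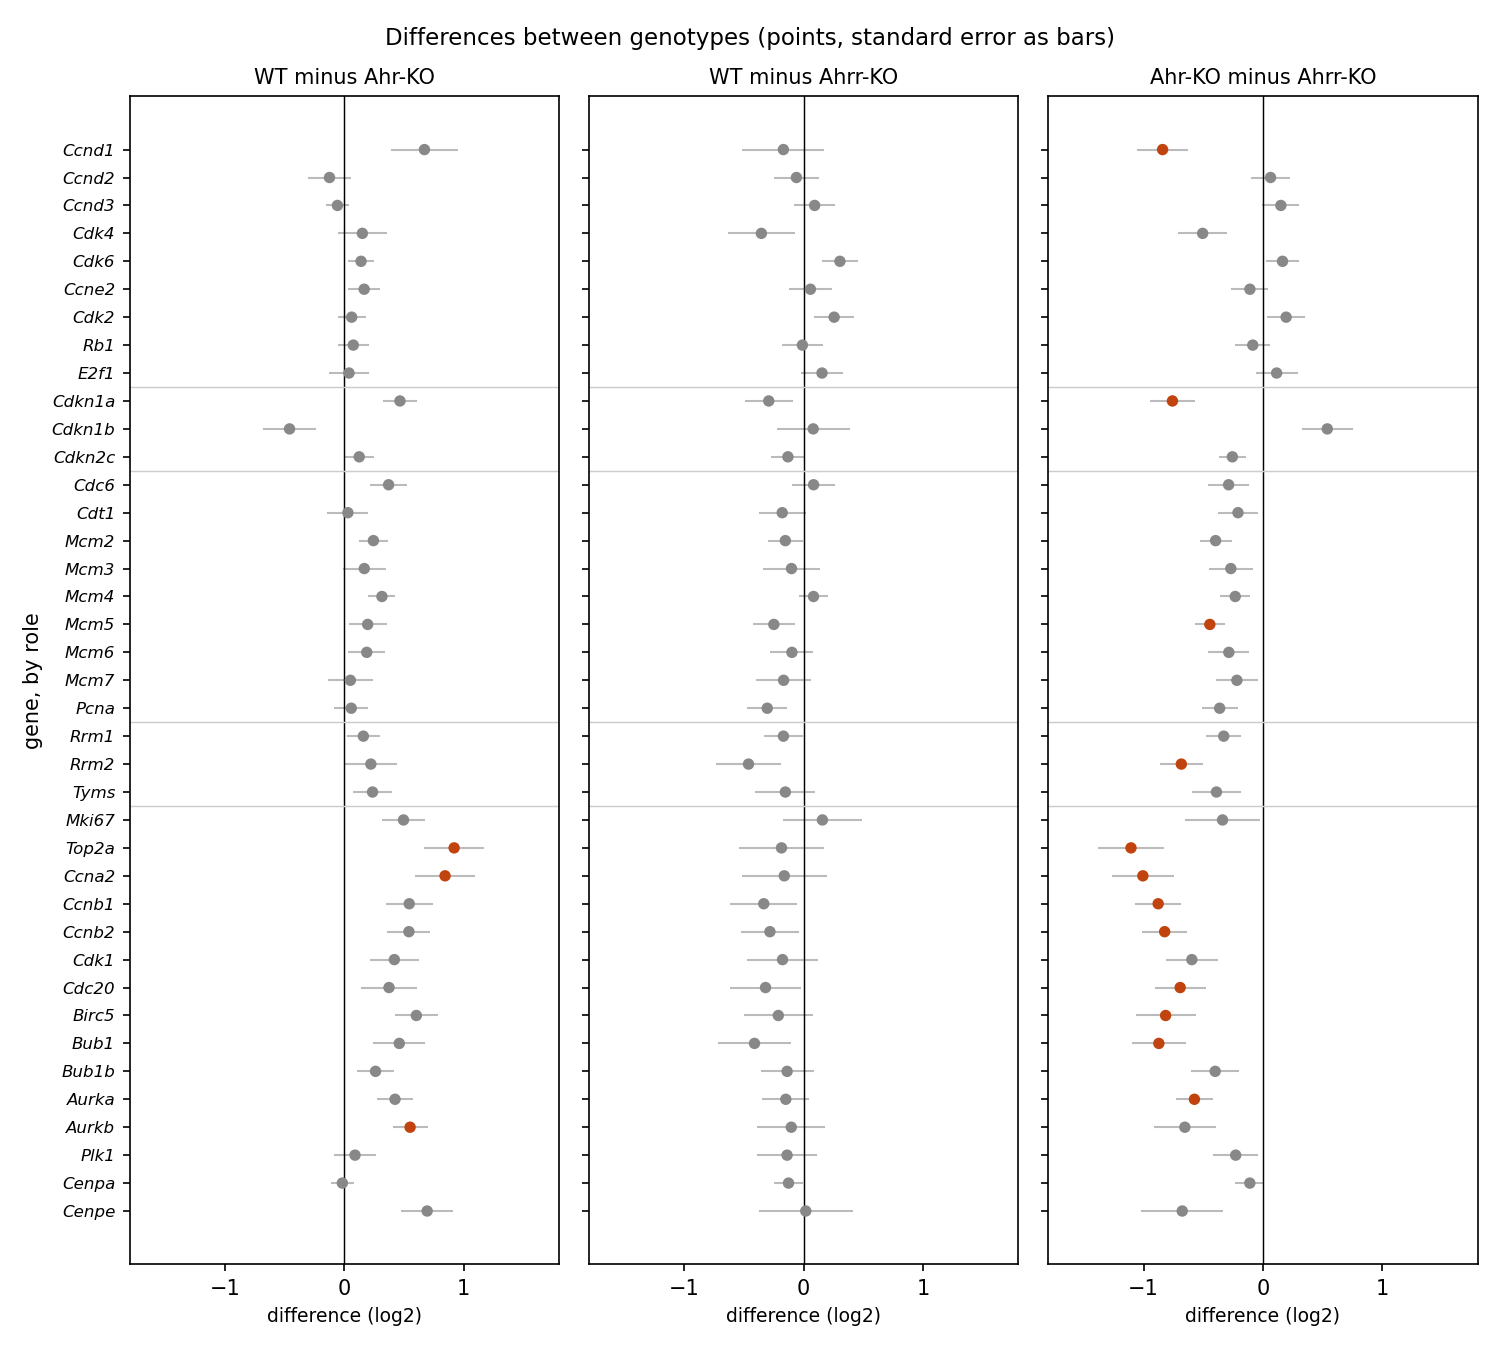
Differences of 39 cell cycle genes on the deposited log2 scale in the 3 genotype comparisons, with standard errors as bars and called genes in orange. Called genes lie above 0 in WT against Ahr-KO (3 genes) and below 0 in Ahr-KO against Ahrr-KO (12 genes).

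G2 and mitosis genes held most of the calls. Of 15, 3 were called in WT against Ahr-KO (20% beside 8.84% of all genes, median difference 0.49). In Ahr-KO against Ahrr-KO 8 were called (53.3% beside 14.9%, median -0.68), of which only Top2a was called in either of the 2 added fits. Top2a encodes the topoisomerase that untangles replicated chromosomes, Ccnb1 and Ccnb2 encode the B cyclins that drive entry into mitosis, and Mcm5 encodes a subunit of the replicative helicase. Their promoters are shown because these members moved together in Ahr-KO against Ahrr-KO and differ in the motifs of late and early cell cycle genes. Each runs from 250 bases before to 50 after the gene start, from RefSeq on GRCm38.p6, at chr11:99024140-99024439 for Top2a, chr13:100786437-100786736 for Ccnb1 and chr9:70421505-70421804 for Ccnb2, all on the minus strand, and at chr8:75109259-75109558 on the plus strand for Mcm5. Capitals mark CCAAT boxes (CCAAT), the cell cycle homology region (CHR, TTTGAA or TTCGAA) and the E2F motif (TTTCCCGC or TTTGGCGC), each read on both strands.
Top2a: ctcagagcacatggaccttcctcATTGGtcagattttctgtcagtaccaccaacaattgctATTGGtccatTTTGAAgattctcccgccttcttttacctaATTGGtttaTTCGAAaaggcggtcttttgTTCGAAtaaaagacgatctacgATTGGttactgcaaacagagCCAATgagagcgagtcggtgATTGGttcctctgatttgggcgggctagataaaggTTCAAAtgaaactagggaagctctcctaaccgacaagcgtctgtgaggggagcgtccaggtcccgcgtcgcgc
Ccnb1: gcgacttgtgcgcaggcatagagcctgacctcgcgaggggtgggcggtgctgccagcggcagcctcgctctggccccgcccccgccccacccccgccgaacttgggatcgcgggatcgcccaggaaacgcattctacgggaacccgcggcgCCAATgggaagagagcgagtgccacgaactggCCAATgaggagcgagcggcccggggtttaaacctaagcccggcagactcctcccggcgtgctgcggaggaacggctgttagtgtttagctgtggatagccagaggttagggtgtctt
Ccnb2: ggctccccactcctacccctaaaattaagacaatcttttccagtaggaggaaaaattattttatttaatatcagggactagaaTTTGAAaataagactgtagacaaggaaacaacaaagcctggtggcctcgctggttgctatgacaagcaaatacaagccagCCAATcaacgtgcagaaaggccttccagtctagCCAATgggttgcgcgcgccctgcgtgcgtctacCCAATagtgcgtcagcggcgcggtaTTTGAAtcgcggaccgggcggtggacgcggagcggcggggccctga
Mcm5: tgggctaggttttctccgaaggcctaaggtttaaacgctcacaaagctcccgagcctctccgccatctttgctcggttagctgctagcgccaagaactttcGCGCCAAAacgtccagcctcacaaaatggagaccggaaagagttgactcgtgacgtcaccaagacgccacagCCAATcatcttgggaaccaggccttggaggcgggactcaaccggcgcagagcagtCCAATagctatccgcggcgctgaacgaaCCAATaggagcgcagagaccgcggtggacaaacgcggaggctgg

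Top2a ran from 493 to 1505 normalized counts in WT (median 643), from 245 to 623 in Ahr-KO (median 389) and from 424 to 2298 in Ahrr-KO (median 805). Ahrr-KO M3, WT F1, Ahrr-KO F3 and WT M3 were the highest libraries, Ahr-KO F2 and F1 the lowest, and the groups overlapped. It was higher in WT than in Ahr-KO by 0.92 (SE 0.25, adjusted p = 0.0328), in 6 of 6 WT samples above the Ahr-KO mean. Over 10 other fits the adjusted p ran from 0.028 to 0.149, and leaving out 1 library gave 0.0143 to 0.0861, with the call lost without WT F3, WT M3 or Ahr-KO F1, F2, F3 or M3. Against Ahrr-KO, Ahr-KO was at -1.11 (SE 0.28, adjusted p = 0.0194, 6 of 6 samples below the Ahrr-KO mean). That call was lost only without Ahr-KO M3 among the 12 libraries (adjusted p = 0.0525, range 0.00822 to 0.0525), and 10 other fits gave 0.0102 to 0.094.

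Ccna2, the gene of cyclin A2, which acts in S phase and G2, ran from 104 to 470 in WT (median 188), from 66.2 to 167 in Ahr-KO (median 99.4) and from 102 to 732 in Ahrr-KO (median 260.0). The 4 highest libraries were those of Top2a. It was higher in WT than in Ahr-KO by 0.84 (SE 0.25, adjusted p = 0.0496, 6 of 6), a call kept without WT F2, M1 or M2 and lost without any 1 of the other 9 libraries (adjusted p from 0.0196 to 0.114 over 12). In Ahr-KO it was lower than in Ahrr-KO, at -1.01 (SE 0.26, adjusted p = 0.0209, 6 of 6), lost without Ahr-KO M1 (0.051) or Ahr-KO M3 (0.0562), with a range of 0.00778 to 0.0562.

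Aurkb, the Aurora kinase of chromosome segregation, ran from 57.1 to 135 in WT (median 81.8), from 34.2 to 62.2 in Ahr-KO (median 45.8) and from 23.6 to 250 in Ahrr-KO (median 121). WT and Ahr-KO overlapped only in WT M1 and Ahr-KO F3, while Ahrr-KO held both the highest library, M3, and the lowest, F2. It was higher in WT than in Ahr-KO by 0.55 (SE 0.15, adjusted p = 0.0284, 6 of 6), and the call was lost without WT F1, WT M3 or Ahr-KO F1, F2 or M1 (0.0131 to 0.0762 over 12 libraries left out). In Ahr-KO against Ahrr-KO it was at -0.65 (SE 0.26, adjusted p = 0.0953, 6 of 6) and was not called.

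Ccnb1 ran from 54.1 to 211 in WT (median 99.3), from 37.7 to 76.3 in Ahr-KO (median 60.7) and from 55.9 to 273 in Ahrr-KO (median 179). Ahr-KO was low in every library, but Ahrr-KO F2, WT M1 and WT M2 lay within its range. Ahr-KO was lower than Ahrr-KO at -0.88 (SE 0.19, adjusted p = 0.00971, 6 of 6), a call kept with each of the 12 libraries left out (0.002 to 0.0287), but not with the epithelial covariate (-0.16, adjusted p = 0.743) or without the 5 libraries (-0.47, adjusted p = 0.0884). Ccnb2 ran from 62.6 to 166 in WT (median 84.9), from 30.2 to 85.6 in Ahr-KO (median 47.4) and from 50.5 to 266 in Ahrr-KO (median 118). Here 3 Ahr-KO libraries, all female, were the lowest of the 18. Ccnb2, too, was lower in Ahr-KO than in Ahrr-KO, at -0.82 (SE 0.19, adjusted p = 0.013, 6 of 6), kept with each library left out (0.00469 to 0.0345), but not with the epithelial covariate (-0.25, adjusted p = 0.685) or without the 5 libraries (-0.50, adjusted p = 0.0746). In WT against Ahr-KO the differences were 0.54 for Ccnb1 (adjusted p = 0.106, 5 of 6) and 0.54 for Ccnb2 (adjusted p = 0.0768, 6 of 6), and neither was called.

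Bub1, a kinase of the spindle checkpoint, ran from 16.0 to 121 in WT (median 64.7), from 16.0 to 54.7 in Ahr-KO (median 32.9) and from 39.8 to 295 in Ahrr-KO (median 91.8). Its highest library, Ahrr-KO M3, held more than any other by a wide margin, and the groups overlapped. Bub1 was lower in Ahr-KO than in Ahrr-KO, at -0.87 (SE 0.22, adjusted p = 0.0212, 6 of 6), lost without Ahr-KO M3 (0.0569, range 0.0115 to 0.0569). Birc5, encoding survivin of the chromosomal passenger complex, ran from 78.2 to 219 in WT (median 109), from 42.7 to 96.1 in Ahr-KO (median 63.5) and from 38.6 to 291 in Ahrr-KO (median 198). In Ahrr-KO 4 libraries were near or above 195 and F1 lay below and F2 within the Ahr-KO range. Ahr-KO was lower at -0.81 (SE 0.25, adjusted p = 0.0432, 6 of 6), kept only without Ahr-KO F3 or Ahrr-KO F1 or F2 (0.0067 to 0.104), and with the epithelial covariate the sign turned to 0.05 (adjusted p = 0.962, beside 0.429 without the 5 libraries).

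Cdc20, an activator of the anaphase-promoting complex, ran from 11.5 to 131 in WT (median 51.5), from 11.9 to 42.4 in Ahr-KO (median 29.2) and from 25.5 to 174 in Ahrr-KO (median 75.8). Cdc20 was lower in Ahr-KO than in Ahrr-KO, at -0.69 (SE 0.21, adjusted p = 0.0424, 6 of 6), a call kept only without Ahr-KO F3 or Ahrr-KO F1 or M2 (0.0119 to 0.0961). Aurka, the Aurora kinase of the spindle poles, ran from 37.1 to 101 in WT (median 66.8), from 24.3 to 49.9 in Ahr-KO (median 44.2) and from 43.0 to 163 in Ahrr-KO (median 79.3). Ahr-KO was lower at -0.57 (SE 0.15, adjusted p = 0.0239, 6 of 6), lost without Ahr-KO F1, M1, M2 or M3 or Ahrr-KO F3 (0.01 to 0.0596). For Cdc20 and Aurka alike the counts of the Ahr-KO libraries spanned less than those of either other group.

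Mki67 and Cdk1, markers of proliferation in common use, were not called in any comparison. Mki67, encoding a protein that coats mitotic chromosomes, ran from 2157 to 3845 in WT (median 2507), from 1211 to 2720 in Ahr-KO (median 1994) and from 1195 to 6013 in Ahrr-KO (median 2621). Ahrr-KO held the highest library, M3, and also 2 of the 3 lowest, F2 and M1, of which M1 was among the 6 highest in the sum of the other 14 genes. The differences were 0.49 in WT against Ahr-KO (SE 0.18, adjusted p = 0.102, 6 of 6) and -0.34 in Ahr-KO against Ahrr-KO (SE 0.32, adjusted p = 0.487, 4 of 6). Cdk1, the kinase of mitotic entry, ran from 38.4 to 141 in WT (median 97.8), from 37.6 to 83.1 in Ahr-KO (median 49.0) and from 31.2 to 235 in Ahrr-KO (median 116). Its differences were 0.42 (SE 0.21, adjusted p = 0.236, 4 of 6) and -0.59 (SE 0.22, adjusted p = 0.0733, 6 of 6).

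**Figure D3:**
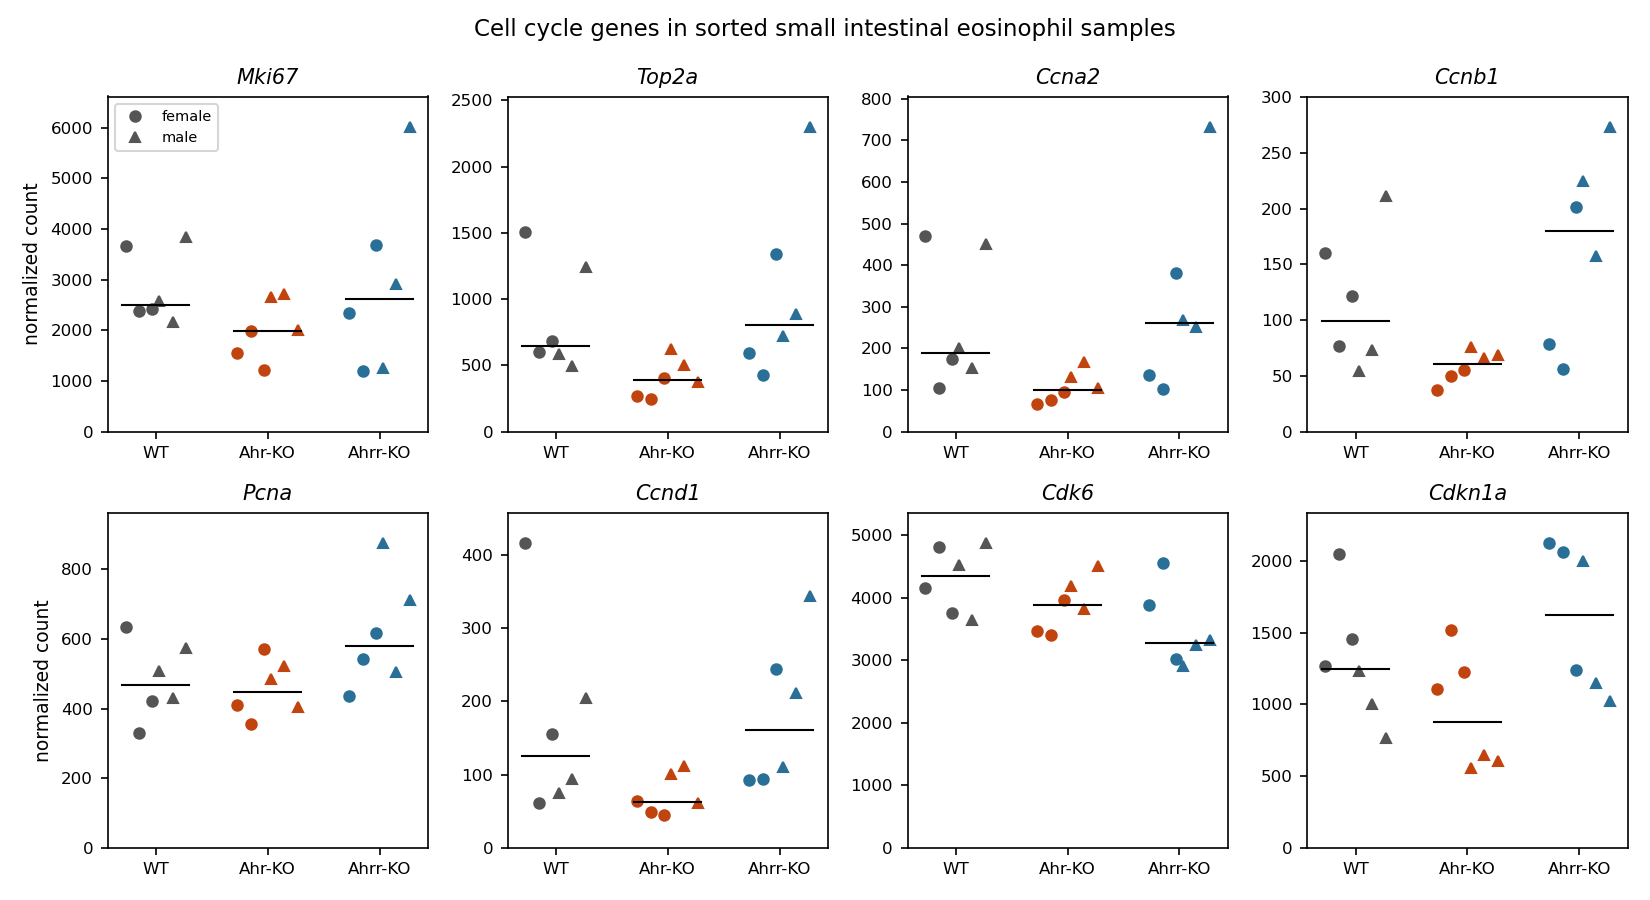
Normalized counts of 8 cell cycle genes in each of the 18 samples, grouped by genotype and marked by sex, each panel on its own linear axis from 0 with the group median as a line. Top2a reaches 2298 in Ahrr-KO M3 and spans 245 to 623 in Ahr-KO.

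Of 9 genes of replication licensing and the fork, 0 were called in WT against Ahr-KO by limma (2 at an unadjusted p under 0.05), with a median difference of 0.19, and 1 in Ahr-KO against Ahrr-KO (11.1% beside 14.9% of all genes), with a median of -0.28 and all 9 differences below 0. Mcm5, whose promoter is printed above, ran from 45.1 to 127 in WT (median 71.7), from 48.0 to 80.8 in Ahr-KO (median 56.7) and from 79.0 to 136 in Ahrr-KO (median 93.5). Only Ahr-KO M1 reached the lowest Ahrr-KO library. The level of Mcm5 was lower in Ahr-KO than in Ahrr-KO, at -0.44 (SE 0.13, adjusted p = 0.0319, 6 of 6), and the call was lost without Ahr-KO F1, F2, M2 or M3 or Ahrr-KO F3 or M3 (0.0244 to 0.0785). Mcm4, another helicase subunit, ran from 286 to 384 in WT (median 315), from 192 to 307 in Ahr-KO (median 257) and from 268 to 394 in Ahrr-KO (median 277), with a difference of 0.31 in WT against Ahr-KO (SE 0.11, adjusted p = 0.101, 6 of 6). Pcna, the sliding clamp of the polymerases, ran from 331 to 636 in WT (median 469), from 356 to 572 in Ahr-KO (median 448) and from 435 to 876 in Ahrr-KO (median 580), and was not called (-0.36 in Ahr-KO against Ahrr-KO, SE 0.15, adjusted p = 0.109, 6 of 6).

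Among the 3 genes of nucleotide supply, Rrm2 was called. It encodes the small subunit of ribonucleotide reductase and ran from 11.5 to 108 in WT (median 65.2), from 18.4 to 51.7 in Ahr-KO (median 44.1) and from 44.1 to 149 in Ahrr-KO (median 105). Ahrr-KO M1, F3 and M3 were the highest libraries, and WT M2 was the lowest of all. Ahr-KO was lower than Ahrr-KO at -0.68 (SE 0.18, adjusted p = 0.0228, 6 of 6), lost without Ahr-KO F1, M1 or M3 or Ahrr-KO M3 (0.0108 to 0.0578). Rrm1, the large subunit, ran from 135 to 362 over all samples and was at -0.33 in this comparison (SE 0.14, adjusted p = 0.131, 6 of 6). Tyms, which makes thymidylate, ran from 91.3 to 310 and was at -0.39 (SE 0.20, adjusted p = 0.196, 6 of 6).

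Of the G1 genes, 1 of 9 tested was called, Ccnd1 in Ahr-KO against Ahrr-KO (11.1% beside 14.9% of all genes). The group's median difference there was 0.07. Ccnd1 encodes cyclin D1 and ran from 60.8 to 415 in WT (median 125), from 45.2 to 112 in Ahr-KO (median 63.0) and from 92.2 to 344 in Ahrr-KO (median 161). WT F1 and Ahrr-KO M3 were the highest libraries. Cyclin D1 transcript was lower in Ahr-KO than in Ahrr-KO, at -0.84 (SE 0.22, adjusted p = 0.021, 6 of 6), lost without Ahr-KO M3 (0.0572, range 0.00896 to 0.0572). Cdk6, the partner kinase and the third most abundant of the genes per kilobase, ran from 3647 to 4870 in WT (median 4343), from 3400 to 4502 in Ahr-KO (median 3888) and from 2901 to 4562 in Ahrr-KO (median 3278). Its largest difference was 0.30 in WT against Ahrr-KO (SE 0.15, adjusted p = 0.671, 6 of 6). Rb1 ran from 1009 to 1880 over all samples, with differences of 0.07, -0.01 and -0.08 in the 3 genotype comparisons (adjusted p from 0.719 to 0.986, with 3, 3 and 4 of 6 samples in that direction).

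Of the CDK inhibitors, Cdkn1a ran from 763 to 2050 in WT (median 1250), from 554 to 1518 in Ahr-KO (median 880) and from 1022 to 2123 in Ahrr-KO (median 1621). Its highest libraries were Ahrr-KO F1 and F2 and WT F2, none of them among the 6 highest in mitotic transcripts, followed by Ahrr-KO M1, which was among those 6. The 3 Ahr-KO males were the lowest. Ahr-KO was lower than Ahrr-KO at -0.76 (SE 0.19, adjusted p = 0.0192, 6 of 6), lost without Ahr-KO M1 (0.0524) or Ahr-KO M3 (0.0506), with a range of 0.00401 to 0.0524. With the epithelial covariate it was at -1.0 (adjusted p = 0.063), not called, and without the 5 libraries at -0.76 (adjusted p = 0.00166). In WT against Ahr-KO it was at 0.47 (SE 0.14, adjusted p = 0.0511, 5 of 6) and not called, whereas it was at 0.84 with the epithelial covariate (adjusted p = 0.000805) and at 0.62 without the 5 libraries highest in crypt markers (adjusted p = 0.0063). Cdkn1b ran from 885 to 2299 in WT (median 1992), from 1869 to 2702 in Ahr-KO (median 2170) and from 834 to 2661 in Ahrr-KO (median 1586). Its 4 lowest libraries, Ahrr-KO M3, WT M3, WT F1 and Ahrr-KO F3, were the 4 highest in the mitotic sum, and it was at 0.54 in Ahr-KO against Ahrr-KO (SE 0.22, adjusted p = 0.0975, 6 of 6).

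**Figure D4:**
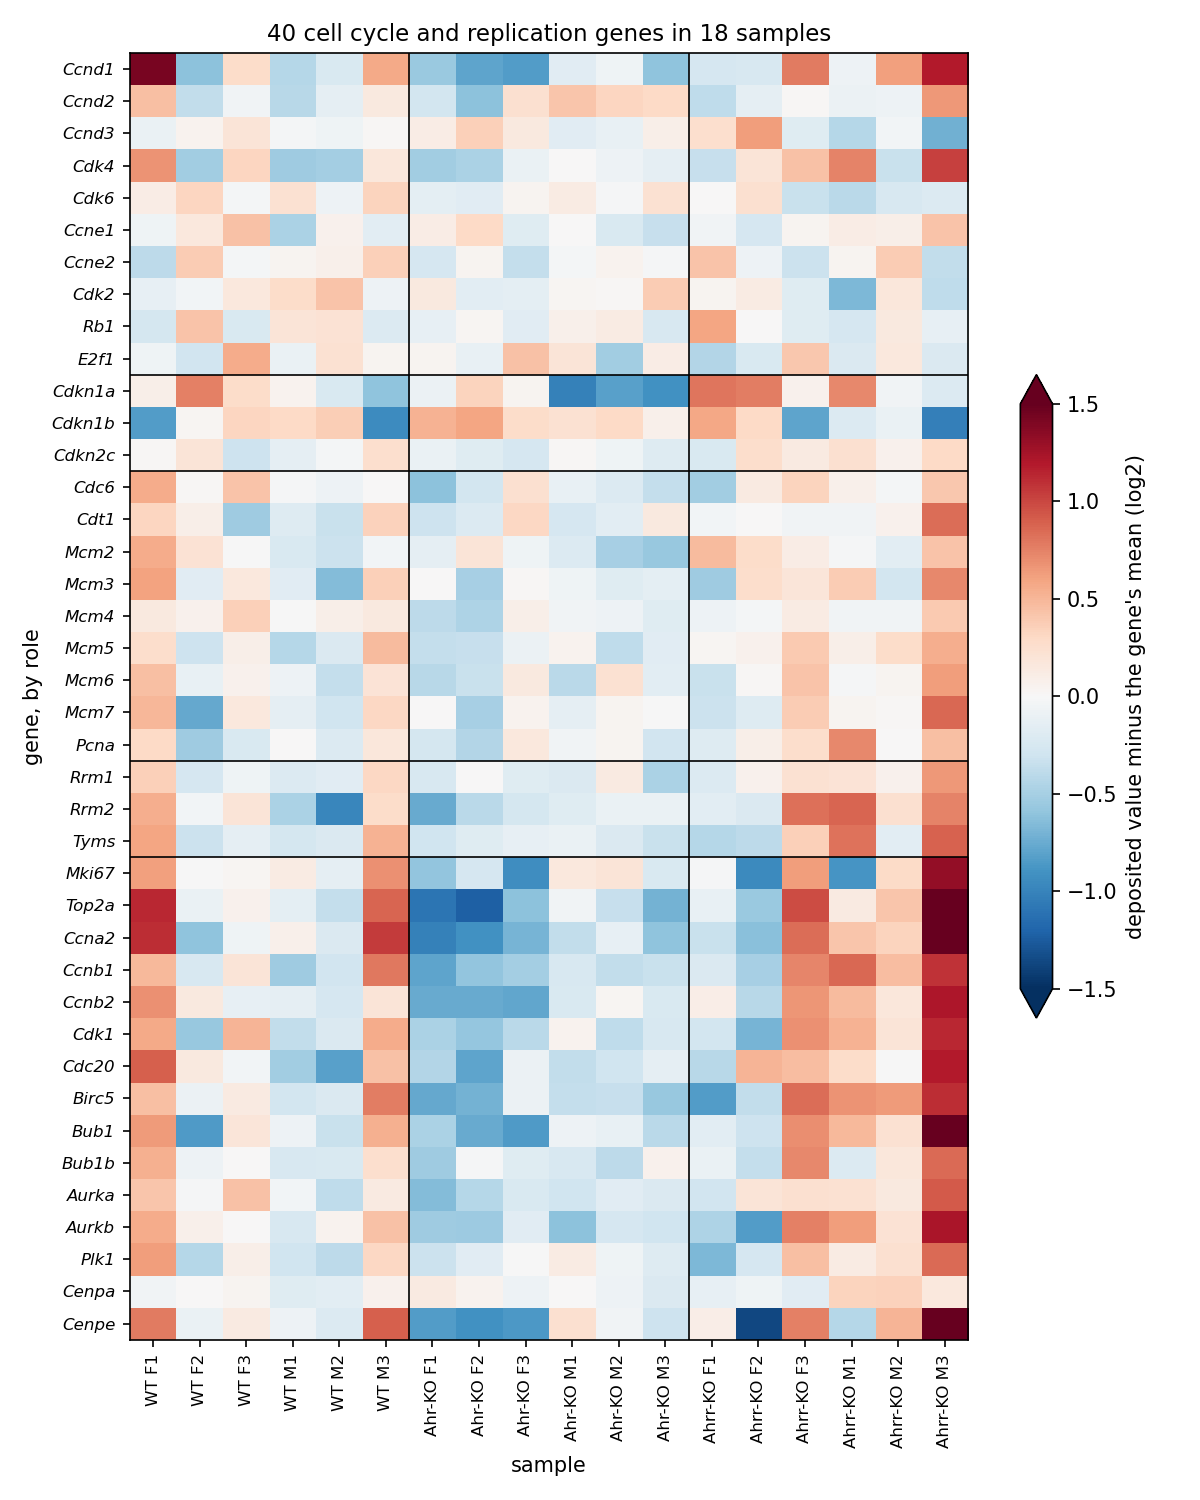
Each cell cycle gene (lines, by role) in each of the 18 samples (columns), coloured by the deposited log2 value less the gene's mean, with the colour scale clipped at 1.5 in either direction. Most mitotic genes are highest in Ahrr-KO M3, where Top2a is at 2298 normalized counts, but Cenpa is highest in Ahrr-KO M2.

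The sexes were compared over all genotypes with genotype as a covariate. Of 39 genes, 1 was called (2.56%), Cdkn1a, lower in males, beside 3.06% of 11468 genes called in either direction and 2.46% lower in males. Most differences lay the opposite way, none of them called, with 29 of the 39 above 0 (median 0.08), among them 14 of the 15 G2 and mitosis genes (median 0.27). All 8 enterocyte, 8 crypt and 6 goblet cell markers were also at higher values in males, none called, and their part was not tested. With the epithelial covariate the median difference of the 39 turned from 0.076 to -0.065. Of the other marker lists, 2 of 9 macrophage and dendritic cell markers tested were called higher in males (median 0.52). Called lower in males were 2 of 5 markers of eosinophil and granulocyte progenitors and 1 of 6 neutrophil markers. Cdkn1a ran from 1111 to 2123 in females (median 1456) and from 554 to 2000 in males (median 1001). All 3 males were below all 3 females in WT and in Ahr-KO, and in Ahrr-KO M1 lay among the females. The difference was -0.68 (SE 0.15, adjusted p = 0.0196), with 8 of 9 males below the female mean. It was not called without Ahr-KO M1 (0.0529, range 0.0052 to 0.0529). With the epithelial covariate it was -0.55 (0.0711), not called, while without the 5 libraries it was -0.85 (0.000477). The count of called genes was 0 without Ahr-KO M1 and 2 without Ahrr-KO F3 or without Ahrr-KO M3, which added Mcm2. Without the 5 libraries it was 3, with Mcm2 and with Ccna2 higher in males (0.50, adjusted p = 0.03). The difference between the sexes was also tested between genotypes. By limma 0 of 39 interactions were called for WT and Ahr-KO and 0 for WT and Ahrr-KO, beside 0% of all genes in both. At an unadjusted p under 0.05 there were 5 (beside 533 of 11346 genes) and 3 (beside 544 of 11546). Limma voom called 0 in both. Of the 15 G2 and mitosis genes, 14 had a lower male minus female difference in WT than in Ahr-KO (median -0.473). All 15 had a lower one in WT than in Ahrr-KO (median -0.805), and none of these differences was called. Many of these genes were high in the same libraries, so their directions do not count as separate results. For all 39 genes the median was -0.268 for WT and Ahr-KO, from -0.438 (without WT M3) to -0.109 (without WT F1) with 1 library left out. For WT and Ahrr-KO it was -0.471, from -0.705 (without Ahrr-KO F3) to -0.229 (without Ahrr-KO M3).

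Another 167 cell cycle genes from 6 lists were measured beside the 40. In WT against Ahr-KO, 18 of 158 tested were called (11.4% beside 8.84% of all genes, 12 higher and 6 lower in WT), in WT against Ahrr-KO 0 of 161 by limma (6 at an unadjusted p under 0.05, and 0 with any other fit run), in Ahr-KO against Ahrr-KO 33 of 159 (20.8% beside 14.9%, 8 higher and 25 lower in Ahr-KO), and between the sexes 6 of 160 (3.75% beside 3.06%), all lower in males. With the epithelial covariate, 9 of 158 were called in WT against Ahr-KO, 6 of them among the 18, with Btg3, Cdc27 and Rfc2 gained (beside 880 of 11346 genes). In Ahr-KO against Ahrr-KO it called 3 of 159, all among the 33 (beside 298 of 11474). Without the 5 libraries 12 of 157 were called in the former, 11 of them among the 18, with Btg3 gained (beside 890 of 11320). In the latter 8 of 157 were called, all among the 33 (beside 626 of 11320). The genes called in all of these fits of both comparisons were Myc, Dck and Kif23.

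Of 26 further genes of G1/S control, 4 were called in WT against Ahr-KO (15.4% beside 8.84% of all genes) and 6 in Ahr-KO against Ahrr-KO (23.1% beside 14.9%). Myc, a transcription factor that drives growth and entry into the cycle, ran from 400.0 to 664 in WT (median 454), from 815 to 1329 in Ahr-KO (median 1009) and from 283 to 598 in Ahrr-KO (median 339). Every Ahr-KO library lay above every library of the other genotypes. The difference was -0.99 in WT against Ahr-KO (SE 0.12, adjusted p = 3.63e-05, 6 of 6) and 1.31 in Ahr-KO against Ahrr-KO (SE 0.17, adjusted p = 0.000232, 6 of 6). E2f8, a repressor among the E2F factors, ran from 112 to 226 in WT and from 45.2 to 104 in Ahr-KO without overlap, at 0.84 (SE 0.15, adjusted p = 0.00189, 6 of 6). It was not called with the epithelial covariate (0.0663, beside 0.00746 without the 5 libraries), and its difference ran from 0.59 to 0.71 over these 2 fits. E2f3, an activating E2F factor, went the other way, from 49.1 to 100.3 in WT and from 101.3 to 151 in Ahr-KO, at -0.57 (SE 0.13, adjusted p = 0.0105, 6 of 6), and was not called with the covariate either (-0.46, adjusted p = 0.129). In Ahr-KO against Ahrr-KO, Wee1, the kinase that holds Cdk1 inactive, was at -0.74 (SE 0.17, adjusted p = 0.0136, 6 of 6, no overlap), and E2f2 at -0.64 (SE 0.19, adjusted p = 0.0367, 6 of 6), lost without Ahr-KO F1, F2, M1, M2 or M3 or Ahrr-KO F3 or M3 (0.0111 to 0.0913). Neither was called with the covariate (-0.22 for Wee1 and -0.17 for E2f2) or without the 5 libraries (-0.38 and -0.43).

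Of 51 further G2 and mitosis genes, 8 were called in WT against Ahr-KO, all higher in WT (16.3% of those tested, beside 8.84% of all genes and 3.68% higher in WT, median difference 0.32). Called in Ahr-KO against Ahrr-KO were 17, all lower in Ahr-KO (34% beside 14.9% and 8.04% lower in Ahr-KO, median -0.52). Kif23, a kinesin of the midbody in cell division, ran from 1140 to 1412 in WT (median 1293), from 443 to 650.0 in Ahr-KO (median 588) and from 716 to 1516 in Ahrr-KO (median 1109). Every Ahr-KO library was below every other library, and the highest were Ahrr-KO F1 and WT M1, neither of them among the 6 highest in the mitotic sum. The difference was 1.07 in WT against Ahr-KO (SE 0.10, adjusted p = 3.77e-06, 6 of 6) and -0.85 in Ahr-KO against Ahrr-KO (SE 0.15, adjusted p = 0.00297, 6 of 6), and with the epithelial covariate it was 1.16 (1.65e-05) and -1.01 (0.0193). Tpx2, which targets Aurka to the spindle, ran from 56.0 to 179 in WT, from 25.1 to 59.4 in Ahr-KO and from 64.1 to 239 in Ahrr-KO, at 0.80 (SE 0.18, adjusted p = 0.0095, 6 of 6) and -0.92 (SE 0.20, adjusted p = 0.00945, 6 of 6). Ckap2l, a spindle protein, ran from 185 to 483 in WT and from 65.2 to 299 in Ahr-KO, at 0.74 (SE 0.18, adjusted p = 0.0161, 6 of 6). In Ahr-KO against Ahrr-KO, Stmn1, a microtubule destabiliser, was at -1.08 (SE 0.30, adjusted p = 0.0314, 6 of 6), Nusap1 of the spindle at -0.98 (adjusted p = 0.0214, 6 of 6) and Cdca3 at -0.93 (adjusted p = 0.00794, 6 of 6). Leaving out 1 library lost Stmn1 without Ahr-KO F1, M1, M2 or M3 or Ahrr-KO F3, M1 or M3 (0.00677 to 0.0776) and Nusap1 without Ahr-KO F2, M2 or M3 (0.0111 to 0.0567). In this comparison Tpx2, Stmn1, Nusap1 and Cdca3 were called in neither added fit. They were at -0.28, -0.15, -0.14 and -0.34 with the epithelial covariate and at -0.52, -0.35, -0.56 and -0.52 without the 5 libraries. Nor was Tpx2 called with the covariate in WT against Ahr-KO (0.37, adjusted p = 0.289).

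Of 47 genes of the replication origin and fork, 3 were called in WT against Ahr-KO (6.82% of those tested) and 4 in Ahr-KO against Ahrr-KO (9.09%), below the shares over all genes. Dna2, a nuclease and helicase of DNA repair and Okazaki fragments, ran from 168 to 240 in WT, from 314 to 465 in Ahr-KO and from 133 to 239 in Ahrr-KO, with no overlap of Ahr-KO with either, at -0.66 (SE 0.11, adjusted p = 0.00105, 6 of 6) and 0.81 (SE 0.12, adjusted p = 0.00063, 6 of 6). Ticrr, needed to fire origins, was the opposite, at 57.5 to 182 in WT and 28.4 to 43.3 in Ahr-KO (0.79, SE 0.18, adjusted p = 0.0123, 6 of 6) and at -0.77 in Ahr-KO against Ahrr-KO (SE 0.22, adjusted p = 0.0324, 6 of 6), the latter lost without Ahr-KO F1, F2, M1, M2 or M3 or Ahrr-KO F3 or M3 (0.00897 to 0.0737). Dbf4, the activator of the Cdc7 kinase, was at 0.43 in WT against Ahr-KO (SE 0.13, adjusted p = 0.0466, 6 of 6), kept only without Ahr-KO M2 or WT F2 (0.0282 to 0.121), and Timeless of the fork at -0.62 in Ahr-KO against Ahrr-KO (SE 0.15, adjusted p = 0.0142, 6 of 6). With the covariate Dna2 was not called in Ahr-KO against Ahrr-KO (0.63, adjusted p = 0.0622), nor was Ticrr in WT against Ahr-KO (0.35, adjusted p = 0.329). Timeless was not called with it either (-0.42, adjusted p = 0.417). Neither added fit called Dbf4 (0.18 with the covariate and 0.38 without the 5 libraries) or Ticrr in Ahr-KO against Ahrr-KO (-0.11 and -0.54). Of 12 further genes of nucleotide supply, 1 and 3 were called (8.33% and 25%), the first near and the second above the share over all genes. Dck, the kinase that salvages deoxycytidine, ran from 338 to 485 in WT, from 617 to 780 in Ahr-KO and from 259 to 393 in Ahrr-KO, with Ahr-KO above all others, at -0.65 (SE 0.10, adjusted p = 0.000365, 6 of 6) and 0.96 (SE 0.12, adjusted p = 0.000163, 6 of 6). Dut and Shmt1, both of thymidylate synthesis, were lower in Ahr-KO than in Ahrr-KO at -0.57 (SE 0.18, adjusted p = 0.048, 6 of 6) and -0.52 (SE 0.17, adjusted p = 0.0478, 6 of 6), and each call was kept in 4 of the 12 fits without 1 library, lost for both without Ahr-KO F1, F2, M1, M2 or M3 or Ahrr-KO F3, M1 or M3 (0.0141 to 0.108 for Dut and 0.0122 to 0.112 for Shmt1). With the covariate they were at -0.05 and -0.02 and without the 5 libraries at -0.18 and -0.20, not called.

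Genes linked to p53 and to arrest of the cycle completed the lists. Of 18 p53 pathway genes, 2 were called in each of WT against Ahr-KO and Ahr-KO against Ahrr-KO (12.5% of those tested in each), with Ahr-KO higher, shares near those over all genes. Plk2 ran from 205 to 1004 in WT, from 814 to 2145 in Ahr-KO and from 232 to 888 in Ahrr-KO, at -1.33 (SE 0.26, adjusted p = 0.00438, 6 of 6) and 1.19 (SE 0.20, adjusted p = 0.00201, 6 of 6). With the epithelial covariate it was at -0.53 (adjusted p = 0.184) and 0.81 (adjusted p = 0.168), not called. Both calls were kept without the 5 libraries (-0.99 and 1.01). Gadd45a, a stress gene, was at -0.74 (SE 0.21, adjusted p = 0.0344, 6 of 6) and 0.93 (SE 0.16, adjusted p = 0.00216, 6 of 6), the former lost without WT F1, F3 or M3 or Ahr-KO F1, F2, F3 or M2 (0.00291 to 0.0893) and in both added fits (-0.19 with the covariate, -0.49 without the 5 libraries). The latter was lost with the covariate (0.54, adjusted p = 0.217). Of 13 CDK inhibitors and antiproliferative genes, 0 were called in WT against Ahr-KO by limma (1 at an unadjusted p under 0.05), and Cdkn3 alone in Ahr-KO against Ahrr-KO (9.09% of those tested), at a difference of -0.59 (SE 0.15, adjusted p = 0.0224, 6 of 6), lost without Ahr-KO M1 or M3 or Ahrr-KO M3 (0.0106 to 0.0604) and in both added fits (-0.56 with the covariate, -0.40 without the 5 libraries).

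Between the sexes, the 6 further genes called were all lower in males. With the epithelial covariate only Impdh2 of the 6 was called (-0.47, adjusted p = 0.0478). Without the 5 libraries all 6 were, among 16 of 157 called, 13 lower and 3 higher in males. Over all genes the calls in these 2 fits were 133 of 11468 and 802 of 11331. Over the same 2 fits the difference ran from -0.67 to -0.47 for Btg3, from -0.67 to -0.45 for Ccng2 and from -0.72 to -0.52 for Plk3. For Cdkn2d it ran from -0.44 to -0.31 and for Fzr1 from -0.38 to -0.31. Impdh2, an enzyme of guanine nucleotide synthesis, ran from 304 to 569 in females and from 210 to 363 in males, at -0.51 (SE 0.11, adjusted p = 0.0164, 9 of 9), and was called with each of the 18 libraries left out (0.00654 to 0.0426). Btg3, an antiproliferative gene, was at -0.71 (SE 0.17, adjusted p = 0.0245, 8 of 9) and was lost without WT F2 or M3, Ahr-KO F2 or M1 or Ahrr-KO F2 or M3 (0.0026 to 0.0594). Fzr1, an activator of the anaphase-promoting complex, was at -0.36 (SE 0.09, adjusted p = 0.0326, 9 of 9) and was lost without Ahr-KO F1, F2, M1, M2 or M3 or Ahrr-KO F1, F2, M2 or M3 (0.0206 to 0.0776). Plk3, a stress-responsive kinase, was at -0.70 (SE 0.17, adjusted p = 0.0323, 8 of 9) and was lost without WT F2 or M3, Ahr-KO F2, F3, M1, M2 or M3 or Ahrr-KO F1, F2, M2 or M3 (0.00131 to 0.0801). The CDK inhibitor Cdkn2d was at -0.38 (SE 0.10, adjusted p = 0.0419, 9 of 9) and was lost without WT F2, M2 or M3, Ahr-KO F1, F2, M1, M2 or M3 or Ahrr-KO F1, F2, M2 or M3 (0.0145 to 0.0974). Ccng2, a cyclin of resting cells, was at -0.68 (SE 0.18, adjusted p = 0.0419, 9 of 9) and was kept only without WT F1, M1 or M2 or Ahrr-KO F3 or M1 (0.00834 to 0.101).

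Promoters of the same length, from 250 bases before to 50 after the start, were found by symbol in RefSeq for 33 of the 40 genes. These genes had 37 promoters, and a gene counted where any of its promoters held the motif, while the shares over all are of promoters. In G2 and mitosis genes a CHR stood in 10 of 13 (76.9%) and a CCAAT box in 12 of 13 (92.3%), beside 19.2% and 37.4% of all 32851 promoters. Top2a held 4 CHR and 6 CCAAT matches and Ccnb2 held 2 and 3, as printed above. Ccnb1 held 2 CCAAT matches and no match to TTTGAA or TTCGAA. Only these forms of the CHR were searched, so a CHR of other letters would be missed. The E2F motif stood in 6 of 8 licensing and fork genes (75%), including Mcm5, in 0 of 13 G2 and mitosis genes, and in 1.56% of all promoters. The core of the xenobiotic response element to which the Ahr dimer binds (GCGTG) stood in 20 of 33 (60.6%), beside 32.4% of all promoters, whose median GC content was 52.7% against 58.7% for the cell cycle genes. A match describes letters in this window, and binding was not tested.

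**Figure D5:**
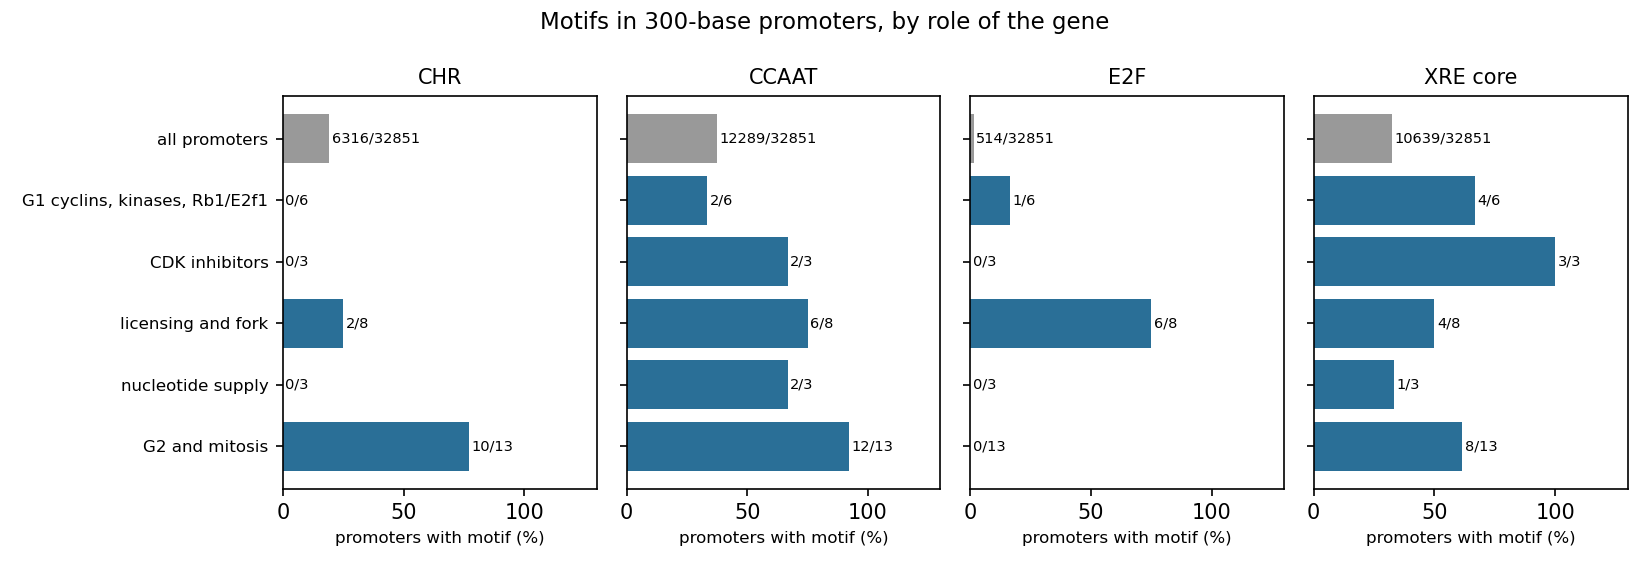
Share of promoters that hold each of 4 motifs (CHR, CCAAT, E2F and the GCGTG core), in percent, for the cell cycle genes by role and for all 32851 promoters. CHR reaches 76.9% in G2 and mitosis genes beside 19.2% of all promoters.

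Markers of other cells were summed in each sample as normalized counts. Crypt markers ran from 2287 to 5388 in WT, from 1366 to 2371 in Ahr-KO and from 2124 to 10822 in Ahrr-KO, with Olfm4 the most abundant (45.8%), and 5 of 8 were called lower in Ahr-KO than in Ahrr-KO. Goblet cell markers ran from 6554 to 19329, from 4667 to 6458 and from 3836 to 42196 in the same order, with 5 of 6 called higher in WT than in Ahr-KO and 5 of 6 lower in Ahr-KO than in Ahrr-KO. Enterocyte markers (Sis 45.1%) ran from 1994 to 7527, from 1259 to 4386 and from 2117 to 17397, with 1 of 8 called lower in Ahr-KO than in Ahrr-KO, and Paneth cell markers (Lyz1 56.2%) from 1635 to 14201, from 1312 to 7787 and from 7759 to 70236, with 6 of 6 called lower in Ahr-KO than in Ahrr-KO. Each of these lists was thus lowest at its upper end in Ahr-KO, which also had the lowest median mitotic sum. By median, crypt (2176 beside 2588) and goblet cell markers (5326 beside 10046) were lower in Ahr-KO than in WT. Enterocyte markers were close (3484 beside 3560), and Paneth cell markers were higher in Ahr-KO (6323 beside 5611). Fibroblast markers (Col3a1 31.4%) reached 202, 99 and 1626, and plasma and B cell markers (Jchain 94.5%) reached 1775, 749 and 6045, both highest in Ahrr-KO libraries. Their part in the cell cycle transcripts was not tested.

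Other lists were of blood cells, vessels and pancreas. Markers of eosinophil and granulocyte progenitors, which divide, ran from 919 to 1377 in WT, from 1456 to 2510 in Ahr-KO and from 630 to 1474 in Ahrr-KO, with Cebpe the most abundant (39.7%) and Mpo, Elane, Prtn3, Ctsg and Ms4a3 at 0 in 9 or more samples. Of the 5 progenitor genes tested, only Cd34 was called in WT against Ahr-KO (-2.40) and in Ahr-KO against Ahrr-KO (2.33). It was at 709 to 1016 in Ahr-KO and at most 204 in every other library. Neutrophil markers ran from 23766 to 48619, from 54979 to 113331 and from 23908 to 45072, of which Retnlg gave 98.1%, and Ly6g and Camp were at 0 in 9 or more samples. The neutrophil sum follows Retnlg, and 5 of the 6 neutrophil genes tested were at lower values in Ahr-KO than in Ahrr-KO, 3 of them called, while 1 was called higher. In WT against Ahrr-KO 2 of 6 were called, both lower in WT, beside 9 of 11546 genes. In WT against Ahr-KO 2 of 6 were called, 1 higher and 1 lower in WT. Macrophage and dendritic cell markers (Adgre1 73.7%) ran from 7774 to 12423 over all samples, a sum that follows Adgre1. Of the 9 genes tested in Ahr-KO against Ahrr-KO, 7 were at lower values in Ahr-KO, 2 of them called (median difference -0.69). Endothelial markers (Pecam1 95.4%) ran from 2581 to 3853 in WT, from 1900 to 2352 in Ahr-KO and from 1809 to 3826 in Ahrr-KO. Of these, 1 of 3 tested was called higher in WT than in Ahr-KO and 1 of 5 lower in Ahr-KO than in Ahrr-KO. Mast cell markers (Cpa3 39.2%) reached at most 156, T cell and innate lymphocyte markers (Cd4 41%) at most 219 and red blood cell precursor markers (Alas2 79.7%) at most 67. Pancreatic acinar markers (Ctrb1 46.1%) ran from 53 to 3324 in WT, from 12 to 385 in Ahr-KO and from 8 to 1475 in Ahrr-KO. Of these, 3 of 5 tested were called higher in WT than in Ahr-KO (60% beside 8.84% of all genes, median difference 1.57). In WT against Ahrr-KO 0 of 6 were called, with all 6 at higher values in WT, and in Ahr-KO against Ahrr-KO 0 of 2.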

How the data were processed

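The authors made cDNA with the NuGEN Ovation RNA-Seq System v2 and libraries with a further NuGEN Ovation kit, sequenced them on an Illumina HiSeq instrument and, per the methods and the submitters' processing notes, aligned reads with STAR 2.5.2 to GRCm38 (Ensembl release 86), counted them with RSEM 1.3.0 and normalized them with DESeq2 in R 4.0.3. The deposited values are variance-stabilized log2 values of 22708 genes with a lowest value of 5.02. Counts were recovered from these log2 values as deposited by inverting the transformation, and 100% of values came out whole within a tolerance of 0.0001. Replicates of a group differed by more than counting noise (lowest chi-square per degree of freedom 7.82).

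Per comparison, only its samples entered limma (3.58.1 in R 4.3.3; lmFit and eBayes with a mean-dependent trend), with sex as covariate, or genotype for males against females, on genes with a mean at least 1 above the lowest value. Adjusted p are limma's with Benjamini-Hochberg adjustment over all genes tested. Alternatives were no minimum mean, a minimum of 3, median centring, quantile normalization, no trend, log2(count + 1), limma voom on recovered counts, all 18 samples, no covariate, a replicate block and each library left out, and 2 added after the data were seen. Lengths are exon unions of GENCODE M21.

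The 40 genes, 15 marker lists (123 genes, 118 with values) and 6 lists of other cell cycle genes were chosen with earlier results of these data known. Named with values are every gene of the 40 called between genotypes or sexes, the 2 with the highest mean of each of 5 roles, Mki67, Top2a, Cdk1, Ccnb1 and Pcna, and in each other list at most 3 called genes with the largest difference per comparison; Ccnd2, Mcm2, Cenpa and, among markers, Cd34 and Prg2 were named after their values were seen. Python 3.11.15 (pandas 2.3.3, scipy 1.17.1) made tables and promoter searches.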

Additional observations from a re-analysis of the deposited data

Results flagged for a closer look

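In each genotype, Ahr, Ahrr, the named genes of the 40 and the 15 marker sums were looked at for a single sample far from the other 5, by its gap to the nearest sample as a share of the group's range on a log2 scale, against Dixon's critical value for 6 samples. Chance alone flags about 1 in 20 groups, and 3 of 117 groups passed. The summed mast cell markers in Ahr-KO had a gap share of 0.777, with Ahr-KO M1 the lowest. The summed T cell and innate lymphocyte markers in Ahrr-KO had a gap share of 0.884, with Ahrr-KO F1 the lowest. The summed pancreatic acinar markers in Ahr-KO had a gap share of 0.688, with Ahr-KO M1 the highest. None of the 3 was a cell cycle gene.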

How the results depend on the processing

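A tally was made for 72 results, which do not cover every named gene in every comparison. Of their 679 values under fits with other settings, 628 kept their direction and side of the threshold, 37 lost the call, 13 gained one and 1 moved. Under the 2 added fits 73 of 144 were the same, 28 lost the call, 2 gained one, 40 moved and 1 reversed. In WT against Ahr-KO the count of called cell cycle genes, 3, was 0 without a minimum mean, 5 with quantile normalization, 0 in a fit of all 18 samples and 1 without the 5 libraries highest in crypt markers, and ran from 0 to 8 with each library left out. In Ahr-KO against Ahrr-KO the count, 12, was 0 without a minimum mean, 2 with a minimum of 3, 6 without the sex covariate, 0 with the epithelial covariate and 3 without the 5 libraries, and ran from 2 to 14 with each library left out. Males against females, 1, gave 2 with median centring, 2 with quantile normalization, 0 without the genotype covariate, 0 with the epithelial covariate and 3 without the 5 libraries, and ran from 0 to 2. WT against Ahrr-KO and both interactions gave 0 in every fit, leaving out each library included (0 to 0). A stricter minimum tests fewer genes (5323 in WT against Ahr-KO) and no minimum tests all 22708; otherwise the cause was not tested. Birc5 in Ahr-KO against Ahrr-KO turned from -0.81 to 0.054 with the epithelial covariate (adjusted p = 0.962, limma), and the cause was not tested. The epithelial covariate and the 5 libraries left out were chosen after the data were seen.

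Replicate numbers did not pair the samples: same-numbered samples correlated from -0.592 to 0.473. With the replicate block the counts were 3 in WT against Ahr-KO, 0 in WT against Ahrr-KO and 14 in Ahr-KO against Ahrr-KO. In the first, Ccna2 was lost and Cdkn1a gained, and in the last, Cdk1 and Cdkn1b were gained. No paired analysis was possible for males against females and the interactions because each sample has 1 sex and replicate names carry it. WT had the lowest median depth and the shallowest library (WT F3, 3842977 counts), which limits the precision of genes with low counts such as Rrm2 and Cdc20. Yet WT F3 had the most genes above 0 (20244), followed by Ahr-KO F3 (19694), while the other libraries had from 15146 (WT F2) to 17236 (Ahrr-KO M3). The cause was not tested.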
